A study of Mus musculus with 15 samples.

Results

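The genes described here are 10 endothelial and adhesion genes, Cdh5, Pecam1, Kdr, Tek, Tie1, Vwf, Nos3, Vcam1, Icam1 and Sele, among 18193 genes on the arrays. They were chosen by name. Every probe set annotated to exactly 1 of the 10 symbols was taken, which gave 13 of 45037 probe sets, and the probe set with the highest mean represented its gene. Foam cells are macrophages filled with lipid in an atherosclerotic plaque, and here they had been cut by laser from the aortic sinus of ApoE-/- mice on a C57BL/6 background, and all groups carry this deletion. There were 5 arrays from mice kept on regular chow (CHOW), 5 after 2 weeks of western-type diet (2w-WD) and 5 after 14 weeks of it (14w-WD). CHOW mice ate chow for 22 weeks, and 14w-WD mice changed diet at week 8 and were taken at week 22. Mice of the 2w-WD group had 20 weeks of chow first per their labels, while the series text sets the diet between weeks 22 and 24, so the age of that group is uncertain. Nothing in the labels links an array to an animal or says whether animals were pooled, so p-values measure only how far these samples spread, and part of that may be technical.

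The endothelium lines vessels and decides which blood cells leave the circulation. Cdh5 (VE-cadherin) and Pecam1 hold endothelial cells together, Kdr is the main receptor for vascular endothelial growth factor, Tek and Tie1 form the angiopoietin receptor system, Vwf encodes von Willebrand factor, which tethers platelets, and Nos3 encodes the nitric oxide synthase of endothelium. Activated endothelium also shows leukocyte receptors: E-selectin (Sele) lets leukocytes roll, while ICAM-1 (Icam1) and VCAM-1 (Vcam1) stop them by binding integrins. Vcam1 and Icam1 are not restricted to endothelium, since macrophages and smooth muscle cells can make them too, and Pecam1 is also found on some leukocytes.

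Values are array intensities as deposited, and log2 levels are log2(intensity + 16). A gene was tested if its mean log2 level reached 5.66, the median of all probe sets, which equals an intensity of 34.6. By this measure the genes split into groups that do not follow their names. Vwf, Vcam1 and Icam1 lay far above the filter level on all 15 arrays. Cdh5 and Nos3 lay little above it, each on 14 of 15 arrays. Pecam1, Kdr, Tek, Tie1 and Sele averaged below it. Thus 5 of 10 genes passed, 3 of the 7 endothelial markers and 2 of the 3 adhesion molecules. Of all 18193 genes, 11925 passed.

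The 10 genes were set beside 35 further endothelial genes. Of these, 29 passed the filter, beside 11925 of all 18193 genes, and 17 lay above it on all 15 arrays. Most genes of this list were thus measurable although Pecam1, Kdr, Tek and Tie1 were dim. Which cells made these transcripts was not tested. The 5 with a mean intensity over 1000, picked out after their values were seen, were Tm4sf1, Plvap, Procr, Ptprb and Mmrn2. Plvap, which forms the diaphragms of fenestrated endothelium, spanned intensities of 5183 to 6734 in CHOW, 2755 to 5877 in 2w-WD and 3137 to 6713 in 14w-WD. Mmrn2, an endothelial matrix protein, spanned 1107 to 3421, 526 to 1433 and 487 to 1752 in the same order. At the other end Erg and Sox18, transcription factors of endothelium, averaged below the filter level in each group. The plot of these genes shows the whole range.

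**Figure D1:**
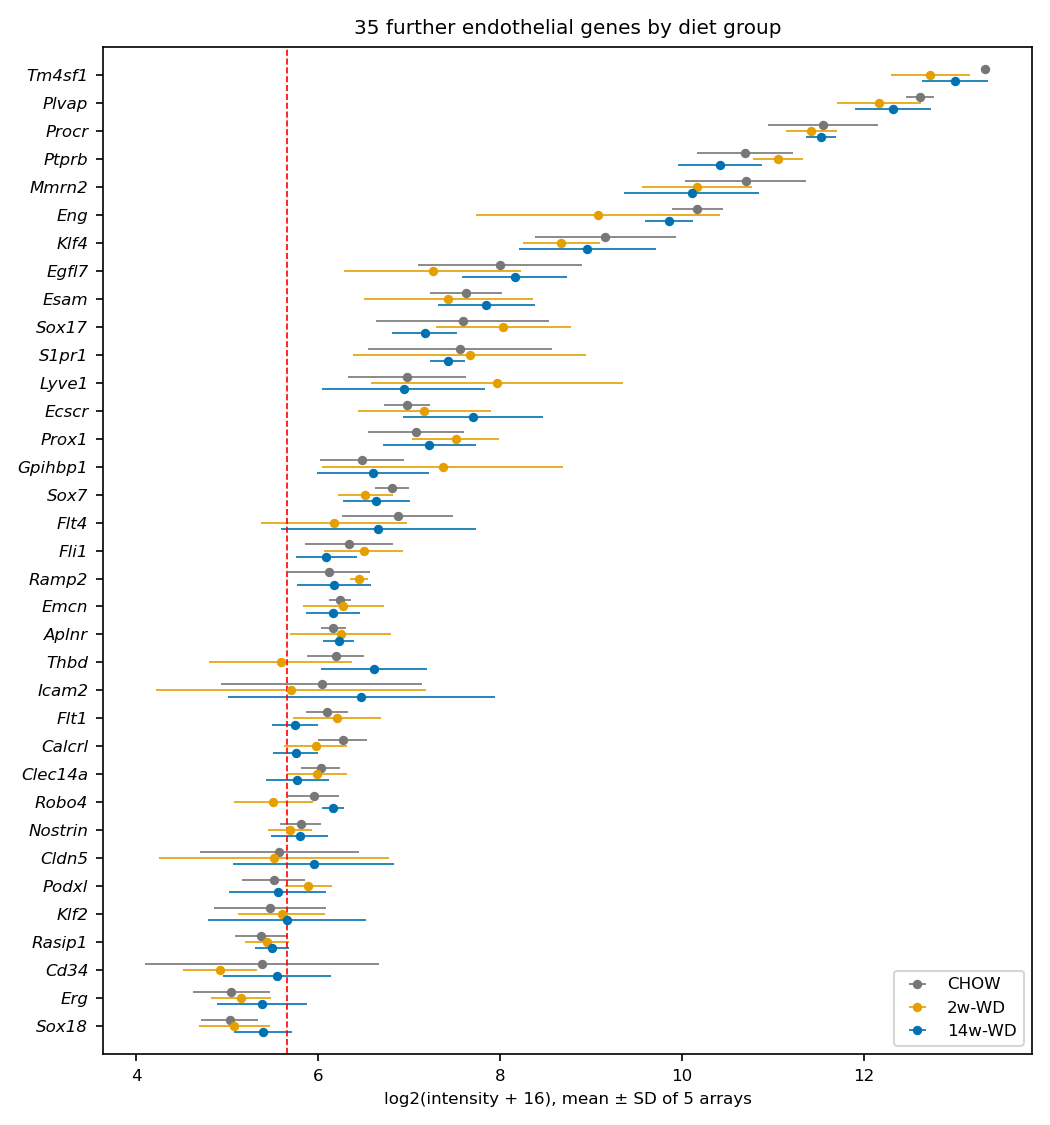
Mean log2(intensity + 16) with SD over 5 arrays for 35 further endothelial genes (rows) in CHOW (grey), 2w-WD (orange) and 14w-WD (blue). The dashed line is the filter level of 5.66. Tm4sf1 and Plvap lie far to the right of it in all groups, and Erg and Sox18 to its left.

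Markers of other cells were present on the same arrays. Adgre1, the F4/80 antigen of macrophages, ran from an intensity of 5805 to 8615 over all arrays. Acta2 of smooth muscle ran from 5140 to 14240, although Myh11, a more selective smooth muscle gene, stood near the filter level (log2 means of 6.39 ± 0.64, 5.77 ± 0.28 and 5.88 ± 0.32 in CHOW, 2w-WD and 14w-WD; SD, n = 5 each). Cd68 of macrophages ran from 1253 to 5814, and 11 of 12 macrophage genes passed the filter, all but Itgam. Myh6 and Tnnt2 of heart muscle ran from 995.5 to 26481 and from 134 to 10163, Col1a1 of fibroblasts from 1632 to 8084 and Cd3e of T cells from 42.1 to 476. Its partners Cd3d and Cd3g were above the filter level on 1 of 15 arrays each, and 5 of 8 lymphocyte genes on the arrays passed the filter. In such samples fewer cells of a type and less RNA per cell cannot be told apart.

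Vwf read 4283, 8296, 4408, 4148 and 3948 on CHOW replicates 1 to 5, then 5437, 3863, 4135, 2130 and 4053 in 2w-WD and 3846, 5133, 5089, 1255 and 3535 in 14w-WD. The groups overlapped widely, with CHOW replicate 2 far above all other arrays and 14w-WD replicate 4 far below them. In log2 the means were 12.24 ± 0.44, 11.88 ± 0.49 and 11.73 ± 0.83 (SD, n = 5 each), so that CHOW was highest and 14w-WD lowest, with differences smaller than the spread. Against CHOW, 14w-WD had a log2 change of -0.50 (SE 0.35, limma adjusted p = 0.488), but -0.15 without 14w-WD replicate 4 and -0.31 without CHOW replicate 2.

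Cdh5 read 58.4, 86.9, 62.5, 77.3 and 42.4 in CHOW, 69.3, 50.1, 67.2, 75.9 and 65.1 in 2w-WD and 76.3, 71.0, 114, 28.1 and 48.0 in 14w-WD. Its log2 means of 6.32 ± 0.32, 6.34 ± 0.18 and 6.29 ± 0.59 (SD, n = 5 each) were within 0.05 of each other, and the widest group was 14w-WD, which held both the highest and the lowest array. The 95% intervals of its log2 changes ran from -0.51 to 0.55 for 2w-WD against CHOW and from -0.56 to 0.50 for 14w-WD against CHOW. A further probe set of Cdh5 had 34.3 to 49.7 in CHOW, 19.0 to 79.7 in 2w-WD and 37.1 to 55.0 in 14w-WD. It also passed the filter, and its changes were 0.18 and 0.13 in those comparisons (limma adjusted p = 0.815 and 0.795, each probe set tested on its own).

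Nos3 read 94.7, 89.8, 51.0, 46.6 and 56.9 in CHOW, 40.3, 38.7, 33.1, 39.6 and 38.9 in 2w-WD and 95.5, 81.8, 99.8, 46.5 and 50.5 in 14w-WD. All 5 arrays of 2w-WD lay below all 10 others, close to the filter intensity, and 14w-WD and CHOW overlapped throughout. The means were 6.35 ± 0.38, 5.76 ± 0.08 and 6.46 ± 0.42 (SD, n = 5 each).

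Pecam1 ran from 9.92 to 27.6 in CHOW, 18.6 to 32.4 in 2w-WD and 16.6 to 66.0 in 14w-WD. It crossed the filter level on a single array, 14w-WD replicate 1. Kdr ran from 15.5 to 48.5, 16.7 to 92.5 and 4.84 to 46.2 in the same order and was above the level on 5 of 15 arrays. Tek ran from 4.84 to 20.0, 4.97 to 24.4 and 9.95 to 32.3, and Tie1 from 4.27 to 17.2, 5.35 to 28.3 and 2.00 to 31.3, both above the level on 0 of 15 arrays. The groups of each of these 4 genes overlapped. Without a filter, where all 18193 genes were fitted, Tek had log2 changes of 0.44 in 14w-WD against CHOW (95% interval -0.01 to 0.90, limma adjusted p = 0.360) and 0.40 against 2w-WD (-0.05 to 0.86, adjusted p = 0.240). These were the smallest adjusted p-values among the 5 dim genes in each of those comparisons, and at such intensities the size depends on the pseudocount (0.85 and 0.78 with a pseudocount of 1).

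**Figure D2:**
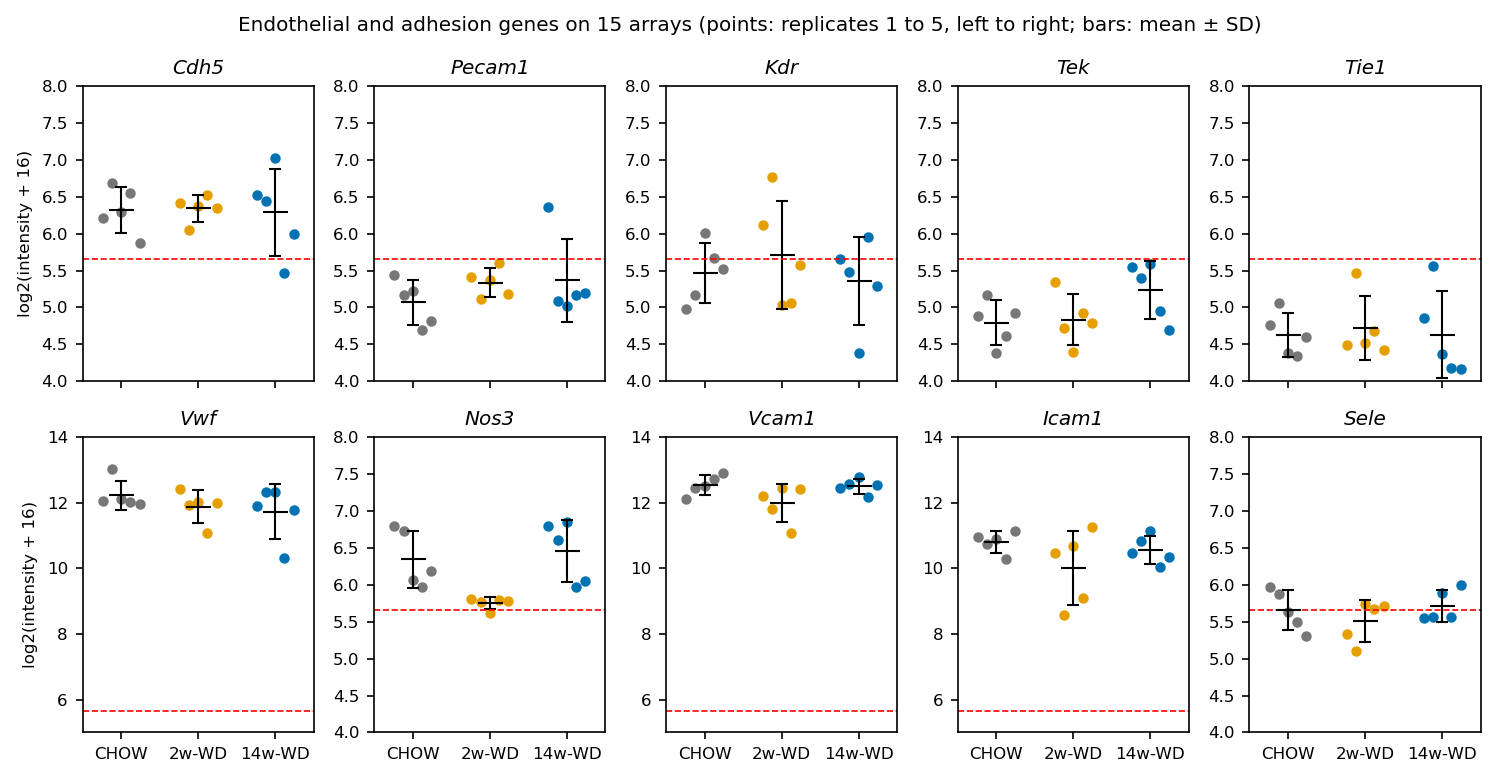
Log2(intensity + 16) of the 10 genes on 15 arrays, with 1 panel per gene; points are replicates 1 to 5 from left to right in CHOW (grey), 2w-WD (orange) and 14w-WD (blue), and bars are means with SD. The dashed line is the filter level of 5.66, and the y axis of Vwf, Vcam1 and Icam1 covers a wider range than that of the other genes. Nos3 in 2w-WD lies below every point of the other groups.

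Vcam1 read 4416, 5560, 5818, 6793 and 7644 in CHOW, 4683, 3543, 5566, 2168 and 5489 in 2w-WD and 5598, 6017, 7108, 4611 and 5908 in 14w-WD. The 2 lowest of the 15 values were 2w-WD replicates 4 and 2, and every other 2w-WD array lay within the range of CHOW. Means were 12.54 ± 0.30, 11.99 ± 0.57 and 12.50 ± 0.22 (SD, n = 5 each), so CHOW and 14w-WD did not differ beyond their spread.

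The other Vcam1 probe sets were far dimmer, and 1 of them moved the other way. The second ran from 40.8 to 54.7 in CHOW, 45.3 to 74.4 in 2w-WD and 32.3 to 60.4 in 14w-WD, and its log2 changes, tested as a probe set of its own, had the opposite sign: 0.20 for 2w-WD against CHOW (limma adjusted p = 0.708) and -0.28 for 14w-WD against 2w-WD (adjusted p = 0.277). The third averaged a log2 of 4.98, below the filter level, and was not tested. It ran from 3.30 to 21.1 in CHOW, 1.00 to 12.1 in 2w-WD and 18.1 to 44.4 in 14w-WD, so all 14w-WD arrays lay above all 2w-WD arrays. Its log2 means were 4.85, 4.57 and 5.52 in the same order, so 2w-WD was lowest, as with the bright probe set. With its probe sets averaged, Vcam1 had a change of 0.18 in place of -0.04 in 14w-WD against CHOW, and neither passed.

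Icam1 read 1979, 1693, 1876, 1223 and 2254 in CHOW, 1414, 370, 1638, 533 and 2431 in 2w-WD and 1405, 1804, 2259, 1039 and 1299 in 14w-WD. Replicates 2 and 4 of 2w-WD were again the lowest arrays, while 2w-WD replicate 5 was the highest of all 15. Its means were 10.80 ± 0.33, 10.02 ± 1.13 and 10.57 ± 0.43 (SD, n = 5 each).

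Sele ran from 23.6 to 46.6 in CHOW, 18.2 to 37.3 in 2w-WD and 31.0 to 47.9 in 14w-WD, with 7 of 15 arrays above the filter level and overlap between all groups. Selp, the P-selectin stored in endothelial cells and platelets, was above the level on all 15 arrays (112 to 2029, 235 to 1932 and 396 to 1468), so the selectins differed in whether they could be measured here.

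Icam1 and Sele are textbook targets of the transcription factor NF-kB in cytokine-treated endothelium, and here 1 was measurable on every array and the other was near the filter level. Their promoters are shown for that contrast, from RefSeq on build GRCm38.p6, as the 250 bases before the annotated start, 5′ to 3′ on the gene's strand. Icam1 lies at chr9:21015690-21015939 on the plus strand and Sele at chr1:164047984-164048233 on the plus strand. Capitals mark matches to GGNNNTTCC, a loose form of the NF-kB binding site, on either strand.
Icam1: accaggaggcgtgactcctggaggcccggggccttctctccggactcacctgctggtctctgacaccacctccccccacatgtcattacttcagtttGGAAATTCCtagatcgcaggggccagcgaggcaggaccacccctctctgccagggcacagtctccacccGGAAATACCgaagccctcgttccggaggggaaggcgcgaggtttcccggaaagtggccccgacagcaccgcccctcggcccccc
Sele: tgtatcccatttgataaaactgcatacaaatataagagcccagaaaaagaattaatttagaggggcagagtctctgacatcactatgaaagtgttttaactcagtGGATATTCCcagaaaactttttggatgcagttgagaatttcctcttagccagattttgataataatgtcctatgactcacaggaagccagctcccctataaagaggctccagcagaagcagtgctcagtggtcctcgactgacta
The Icam1 window held 2 matches, which begin at positions -153 and -84 from the start, the first of them a match when read on either strand and the second on the opposite strand. The Sele window held 1, at -145, and a TATAAA at -49, which the Icam1 window lacked. Over 32851 promoter windows of this length, 15.7% held a match to GGNNNTTCC and 12.4% a TATAAA on either strand. The Kdr, Tek and Tie1 windows held neither. RefSeq promoters were matched for 5 of the 10 genes. Cdh5, Pecam1, Vwf, Nos3 and Vcam1 are named only.

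The comparison of 2w-WD with CHOW asks about short feeding. Here limma called 0 of the 5 tested genes and 0 of 11925 genes (0%), with 1164 at an unadjusted p under 0.05 (9.76%). Of the 5, Nos3 (-0.59, SE 0.22, 95% interval -1.06 to -0.12, adjusted p = 0.485) and Vcam1 (-0.55, SE 0.23, -1.04 to -0.06, adjusted p = 0.507) were below an unadjusted p of 0.05. Nos3 was also the only 1 of the 5 without overlap, where 1.12% of all genes tested had none. Icam1 had -0.78 (SE 0.43, -1.67 to 0.12, adjusted p = 0.539) and Vwf -0.35 (SE 0.35, -1.08 to 0.38, adjusted p = 0.720). Single arrays moved these sizes: without 2w-WD replicate 4 Vcam1 had -0.32 and Vwf -0.15, and without 2w-WD replicate 2 Icam1 had -0.42. The median of the 5 was -0.55, against -0.10 over all genes tested. Marker lists of other cells differed as well. Heart muscle genes had a median change of 1.13 with 13 of 15 above 0 and 4 at an unadjusted p under 0.05, and their summed intensity ran from 56299 to 118296 in 2w-WD and from 2906 to 81199 in CHOW. Macrophage genes had -0.26 with 9 of 11 below 0 and 5 at an unadjusted p under 0.05 (sums of 71669 to 96302 in 2w-WD and 86503 to 111382 in CHOW). None of these list genes passed in limma, and their part in the values of the 5 was not tested.

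The comparison of 14w-WD with CHOW asks about long feeding. In it 0 of the 5 passed in limma, 0 were under an unadjusted p of 0.05 and 0 were free of overlap. Over all genes 1 passed (0.00839%), 15.9% were under an unadjusted p of 0.05 and 4.87% had no overlap. Changes were 0.11 for Nos3 (95% interval -0.36 to 0.58), -0.04 for Vcam1 (-0.53 to 0.45), -0.23 for Icam1 (-1.13 to 0.67), -0.03 for Cdh5 and -0.50 for Vwf. These intervals still allow a Vcam1 change of about 0.5 and an Icam1 change of about 1 on the log2 scale in the lower direction. The 5 had a median of -0.04, against 0.16 over all genes tested. Heart muscle genes had a median of 0.81 with 12 of 15 above 0, and fibroblast genes 0.45 with 9 of 9 above 0, with 0 called in each list and 1 in each at an unadjusted p under 0.05.

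Long against short feeding gave the only call among the 5. These groups also differ in the week the diet began, and feeding length and that week cannot be told apart. In 14w-WD against 2w-WD, Nos3 rose by 0.70 (SE 0.22, 95% interval 0.24 to 1.17, limma adjusted p = 0.0494), a 1.63-fold difference on the log2(intensity + 16) scale. All 5 arrays of 14w-WD lay above all 5 of 2w-WD. That was 1 of 5 tested genes, beside 1338 of all 11925 (11.2%; 10.1% higher and 1.15% lower). Scaling moved that balance, from 1201 higher and 137 lower as reported to 640 and 288 with quantile normalization and 975 and 191 with median centring. Nos3 did not pass under either. With the reported scaling, lack of overlap was found in 8.63% of all genes, and a single call among 5 is near the background share. At an unadjusted p under 0.05 there were 2 of the 5, Nos3 and Vcam1, beside 32.1% of all genes. Vcam1 had 0.51 (SE 0.23, 0.02 to 1.00, adjusted p = 0.139), or 0.29 without 2w-WD replicate 4. Icam1 had 0.55 (SE 0.43, -0.35 to 1.44, adjusted p = 0.378), or 0.19 without 2w-WD replicate 2. Cdh5 had -0.05 and Vwf -0.15 (adjusted p = 0.908 and 0.788). The 5 had a median of 0.51, against 0.23 over all genes tested. The comparisons share arrays, since 2w-WD stands in this one and in the one with CHOW.

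The Nos3 call sat at the threshold. It was lost without any of 12 single arrays, CHOW replicates 2 to 5, 2w-WD replicates 2 to 5 and 14w-WD replicates 1, 2, 3 and 5 (changes of 0.60 to 0.80, adjusted p from 0.0511 to 0.130). Other measures moved with it. Probe sets brighter than 100 made up 22.5% to 27.2% of each array in 14w-WD and 18.2% to 25.7% in 2w-WD. That percentage was entered in the fit as a covariate, an alternative chosen after seeing the data. Nos3 then had 0.42 (adjusted p = 0.729), and limma called 0 of all genes, with 934 at an unadjusted p under 0.05. The percentage comes from the same intensities, so a broad diet difference would be taken out with it. This fit therefore cannot separate brightness from diet.

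Marker lists of other cells were read in the same comparison. Over all genes tested the median change was 0.23, with 10.1% called higher and 1.15% lower. The fibroblast list had a median change of 1.04 with 9 of 9 genes above 0 and 3 called higher, and its summed intensity ran from 39437 to 53382 in 14w-WD and from 31072 to 42163 in 2w-WD. The macrophage list, near all genes in median and share called, had 0.32 with 10 of 11 above 0 and 1 called higher (89672 to 106452 and 71669 to 96302). For heart muscle the median was -0.45 with 13 of 15 below 0 and 0 called (27252 to 92162 and 56299 to 118296). The part of these cells in the Nos3 result was not tested.

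**Figure D3:**
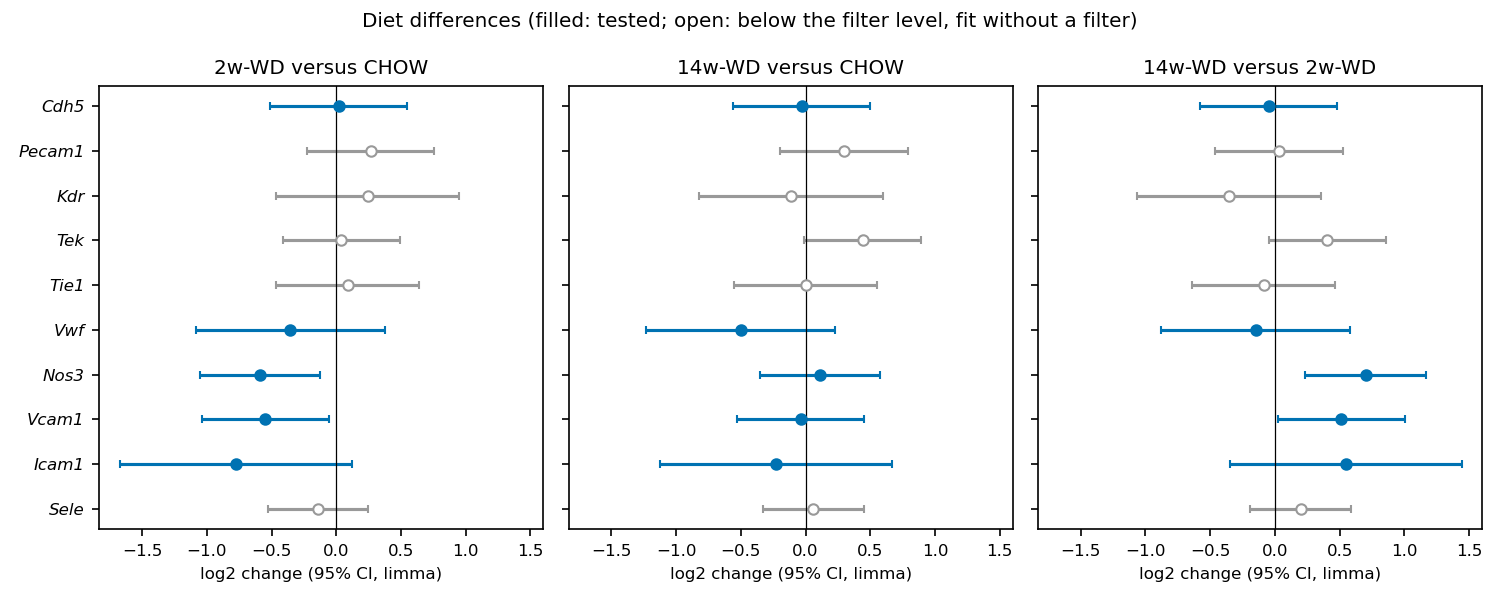
Log2 changes with 95% intervals from limma for the 10 genes in 3 comparisons; filled points are the 5 tested genes, and open points are the 5 genes below the filter level, fitted without a filter. Nos3 in 14w-WD versus 2w-WD, at 0.70, is the point that passed.

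Of the 29 tested genes of the further endothelial list, 0 passed in limma in each of the 3 comparisons as reported. There were 3, 1 and 3 under an unadjusted p of 0.05 in 2w-WD against CHOW, 14w-WD against CHOW and 14w-WD against 2w-WD, beside 9.76%, 15.9% and 32.1% of all genes. Their median changes were -0.12, -0.08 and 0.11, beside -0.10, 0.16 and 0.23 over all genes tested. In the first comparison the smallest p-values were those of Tm4sf1, a tetraspan-like surface protein of endothelium (-0.61, SE 0.19, adjusted p = 0.480), and Eng, the co-receptor endoglin (-1.09, SE 0.48, adjusted p = 0.507). In the second they were Calcrl, the adrenomedullin receptor (-0.52, SE 0.20, adjusted p = 0.239), and Ecscr (0.73, SE 0.37, adjusted p = 0.352). In the third they were Robo4 (0.66, SE 0.21, adjusted p = 0.0510) and Thbd, the anticoagulant thrombomodulin (1.03, SE 0.34, adjusted p = 0.0597). These lay near the threshold. Robo4 passed under 6 and Thbd under 4 alternatives, down to adjusted p-values of 0.0252 (array weights) and 0.0043 (without 2w-WD replicate 1). Those 2 settings called 3839 and 3536 of all genes. Over the alternatives the changes ran from 0.34 to 0.95 for Robo4 and from 0.03 to 1.40 for Thbd. Their limma adjusted p-values reached 0.685 and 0.981. In 2w-WD both averaged below the filter level (5.51 and 5.59), with 2 and 1 of 5 arrays above it. Calcrl passed against CHOW with array weights (-0.63, adjusted p = 0.0209).

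The list of endothelial ligands and related secreted factors did include calls. Of 8 tested, 3 were higher and 0 lower in 14w-WD against 2w-WD, beside 10.1% and 1.15% of all genes, and 0 passed in the other comparisons. The median change was -0.26 in 14w-WD against 2w-WD, so the list did not move as a whole. Angpt2, the ligand that antagonises Tek, averaged 8.12 ± 0.52 in 14w-WD and 6.38 ± 0.63 in 2w-WD (SD, n = 5 each) and rose by 1.74 (SE 0.43, limma adjusted p = 0.0224). Vegfc, the growth factor that acts through Flt4, averaged 8.19 ± 0.71 in 14w-WD and 6.83 ± 0.27 in 2w-WD and rose by 1.36 (SE 0.29, limma adjusted p = 0.0161). Angptl4, an inhibitor of lipoprotein lipase that was placed on this list, averaged 8.64 ± 0.52 in 14w-WD and 7.02 ± 1.14 in 2w-WD. It rose by 1.62 (SE 0.47, limma adjusted p = 0.0382). Vegfc was the nearest to a call against CHOW too (1.45, SE 0.29, adjusted p = 0.0841), with 14w-WD above CHOW on all arrays, and it passed with array weights (adjusted p = 0.0061) and without 2w-WD replicate 1 (0.0291). Leaving out 14w-WD replicate 1 ended all 3 calls. Those of Angpt2 and Angptl4 also ended without 14w-WD replicate 3 or without replicate 2 or 4 of 2w-WD. Angptl4 alone was lost without 14w-WD replicate 2 or 5 and without replicate 3 or 5 of 2w-WD, and without a filter (adjusted p = 0.0502). Limma adjusted p-values ran from 0.0531 to 0.103 for calls lost with 1 array left out. With its probe sets averaged, Vegfc had 0.35 (adjusted p = 0.140).

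Partners of the adhesion molecules on leukocytes and junctions had 18 tested genes. In 14w-WD against 2w-WD 0 were higher and 2 lower, beside 10.1% and 1.15% of all genes, and 0 passed in the other comparisons. Itgb1, the beta chain that pairs with the VCAM-1 partner Itga4, averaged 6.51 ± 0.15 in 14w-WD and 7.72 ± 0.54 in 2w-WD (SD, n = 5 each) and fell by 1.21 (SE 0.27, limma adjusted p = 0.0174). With its probe sets averaged the change was 0.11, so the direction rests on the brightest probe set. F11r, the junctional adhesion molecule A, averaged 7.52 ± 0.33 in 14w-WD and 8.71 ± 0.53 in 2w-WD and fell by 1.19 (SE 0.33, limma adjusted p = 0.0327). The Itgb1 call was lost without 14w-WD replicate 1 or 3. The F11r call was lost without any 1 of 14w-WD replicates 1, 2, 3 and 5, and likewise for replicates 2 to 5 of 2w-WD. Limma adjusted p-values for these losses ran from 0.0542 to 0.0838. Itgb2, the common beta chain of the ICAM-1 receptors, was above the filter level on all arrays, with log2 means of 12.75 ± 0.17, 12.68 ± 0.26 and 12.90 ± 0.07 for CHOW, 2w-WD and 14w-WD (SD, n = 5 each). The alpha chains on the list were uneven. Over all arrays Itgax averaged 12.06, Itgal 6.35 and Itgam 4.97, and Itgam was above the filter level on 2 of 15 arrays. For short feeding against CHOW the smallest p-values were those of Itgax (-0.48) and Cd47 (-0.50; adjusted p = 0.507 and 0.540).

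Cytokines, receptors and factors that induce adhesion molecules had 14 tested genes, of which 3 were higher and 0 lower in 14w-WD against 2w-WD, beside 10.1% and 1.15% of all genes, and 0 passed elsewhere. Relb, an NF-kB subunit, averaged 6.72 ± 0.66 in 14w-WD and 4.85 ± 0.42 in 2w-WD (SD, n = 5 each) and rose by 1.87 (SE 0.35, limma adjusted p = 0.0113). It was near the detection limit: 0 of 5 arrays of 2w-WD lay above the filter level, and its mean over all arrays, 5.78, passed the filter through 14w-WD. Its size follows the pseudocount (2.84 with 1 and 1.01 with 64), and the call held without a filter. Tnfrsf1b, the second tumour necrosis factor receptor, averaged 9.59 ± 0.18 in 14w-WD and 7.87 ± 1.11 in 2w-WD and rose by 1.72 (SE 0.44, limma adjusted p = 0.0251). Irf1, an interferon-induced transcription factor, averaged 8.63 ± 0.44 in 14w-WD and 7.43 ± 0.24 in 2w-WD and rose by 1.20 (SE 0.30, limma adjusted p = 0.0238). The calls of Irf1 and Tnfrsf1b ended without 14w-WD replicate 1, 3 or 5 and without replicate 2 or 4 of 2w-WD (adjusted p from 0.0553 to 0.0720), and no single array ended that of Relb. Irf1 was lost with quantile normalization too (0.68, adjusted p = 0.0943). In 14w-WD against CHOW these were 0.87 for Irf1 and 0.93 for Relb (adjusted p = 0.202 and 0.224). In 2w-WD against CHOW, Ccl2 had 0.97 and Relb -0.94 (adjusted p = 0.485 for both). With the covariate for bright probe sets described above, none of the 8 calls in these 3 lists remained, although some changes stayed large: 1.26 for Tnfrsf1b, 1.22 for Vegfc, 1.18 for Relb and 0.99 for Angpt2, with 0.72 for Irf1, 0.36 for Angptl4, -0.70 for Itgb1 and -0.73 for F11r.

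The genes most like each of the 5 tested ones were sought by the Pearson correlation of log2 levels over the 15 arrays among 11924 others, as a description. For Vwf they were Mmrn2 (r = 0.92), Fcsk (r = 0.88) and Ntn4 (r = 0.87). Mmrn2 is itself on the further endothelial list, and its r with Vwf was 0.87 without the 2 arrays farthest in Vwf, 14w-WD replicate 4 and CHOW replicate 2. Over the 29 tested genes of that list the median r with Vwf was 0.33, beside 0.09 over all genes, and 5 of 29 exceeded 0.5, beside 4.21% of all genes. Without those 2 arrays it was 13 of 29, beside 24.4%. With all 15 arrays, Nos3, Vcam1 and Icam1 stood closer to all genes. Counts over 0.5 were 7 of 29 for Nos3 (22.7% of all), 5 for Vcam1 (19.3%) and 5 for Icam1 (14.3%). Without the 2 arrays farthest in each gene they were 6 (14.8%), 1 (5.36%) and 5 (2.31%) in the same order. For Cdh5 the count was 4 (4.16%), and 0 (2.86%) without 14w-WD replicates 4 and 3. How far Vwf stood out thus depended on the arrays kept. These points share arrays. Array brightness was compared with Vwf, Vcam1 and Icam1 only, as given below, and its part in the other pairs was not tested.

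For Vcam1 the 3 were Eln, which encodes elastin (r = 0.96), Tubb5 (r = 0.95) and Tpm4 (r = 0.94). Without 2w-WD replicates 4 and 2 these were 0.83, 0.80 and 0.74. For Icam1 they were Rpsa (r = 0.91), Ddb1 (r = 0.89) and Snrnp27 (r = 0.89), at 0.50, 0.60 and 0.68 without the same arrays. Nos3 was closest to Eno2 (r = 0.91), Smyd2 (r = 0.90) and Myof (r = 0.89), and Cdh5 to Ncdn (r = 0.82), Arhgef2 (r = 0.80) and Lmbr1 (r = 0.79), none of them on the endothelial lists.

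Among the 3 bright genes and the mean intensity of the array, 6 relations were computed over 15 arrays with 100000 permutations each, and p-values were adjusted over the 6. Vcam1 and Icam1 had r = 0.76 (permutation p = 0.0042, adjusted p = 0.0126) and rho = 0.45 (permutation p = 0.0951, adjusted p = 0.190). Without 2w-WD replicates 4 and 2, r was 0.35, so the relation rested on those arrays. Vcam1 and the mean intensity of the array had r = 0.79 (permutation p = 0.0041, adjusted p = 0.0126) and rho = 0.58 (permutation p = 0.0269, adjusted p = 0.149), and r = 0.26 without the same arrays. With group means removed these r were 0.69 and 0.82. The other 4 did not pass, with adjusted permutation p-values from 0.118 to 0.159 for r. Among them, Vwf and the mean intensity of the array had r = 0.37, but 0.82 without 14w-WD replicate 4 and CHOW replicate 2. Icam1 and that mean had r = 0.52, but -0.21 without 2w-WD replicates 2 and 4. Array 2w-WD replicate 4 had the lowest mean intensity of all, 274, against 331 to 418 on the others.

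**Figure D4:**
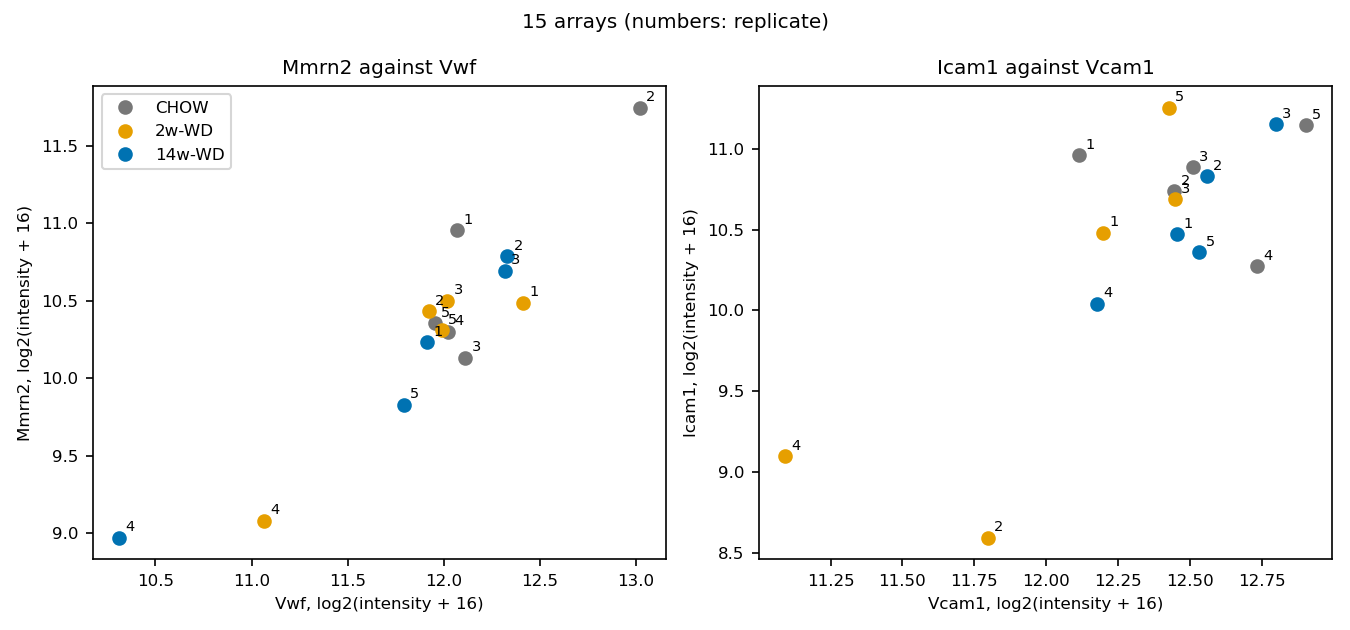
Log2(intensity + 16) of Mmrn2 against Vwf and of Icam1 against Vcam1 on 15 arrays in CHOW (grey), 2w-WD (orange) and 14w-WD (blue), with replicate numbers beside the points. CHOW replicate 2 and 14w-WD replicate 4 mark the ends of the Vwf axis, and 2w-WD replicates 4 and 2 lie apart in the plot of Icam1.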

How the data were processed

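Amplified RNA of laser-captured foam cells was measured on 15 Affymetrix mouse arrays, per the labels' protocols. The authors deposited 1 linear intensity per probe set and array; their summarisation, background correction and normalization are not given in the sources used here. Array medians lay between 31.7 and 38.2. Arrays have no counting depth, so their number and brightness limit precision. Probe sets were named by the platform's GEO annotation: 34945 had 1 gene, 932 several, and 9160 were unnamed. Here intensities became log2(intensity + 16), each of 18193 genes was represented by its brightest probe set, and 6268 genes below the median of all probe sets were left out. limma 3.58.1 in R 4.3.3 (lmFit, eBayes with trend) was fitted on all 15 arrays, with 3 pairwise contrasts, two-sided tests, Benjamini-Hochberg adjustment over 11925 genes and a threshold of 0.05. The fit was tried on simulated data with independent noise for each gene. Those data lacked shifts shared by an array, so no error rate for the real arrays follows. A fold change on this scale understates the change of dim genes. Correlations used numpy 2.4.6, with two-sided permutation tests.

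The genes and lists were chosen with earlier results of these data known. Of the context lists, genes past the threshold were named, at most 6 per list and comparison, or otherwise the 2 with the smallest p; likeness named 3 genes per tested gene, leaving out clone and predicted names. The lists were further endothelial genes (35 of 35 on the arrays), ligands (9 of 9), adhesion partners (20 of 21) and cytokine induction (17 of 19). The smooth muscle list (10 genes, 8 tested) had 1 call in 14w-WD against 2w-WD, where 11.2% of all genes passed. The lymphocyte list (8 of 10 on the arrays) had 0 calls in limma in each comparison, with 0 at an unadjusted p under 0.05. Pseudocounts, filters, normalizations, probe set rules, weights, trend, groups fitted, a replicate block and leaving out each array were the alternatives. Replicate numbers come from sample titles.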

Additional observations from a re-analysis of the deposited data

Results flagged for a closer look

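Among 39 sets of 5 arrays (13 probe sets in 3 groups), 5 held an array whose gap to its nearest neighbour, as a share of the group's log2 range, exceeded Dixon's 95% critical value for 5 samples. Chance flags about 1 group in 20. Vwf on CHOW replicate 2 had a gap of 0.852 of the range, at an intensity of 8296 against 3948 to 4408 on the other CHOW arrays. Vwf on 14w-WD replicate 4 had 0.734, at 1255 against 3535 to 5133. Nos3 on 2w-WD replicate 3 had 0.791, at 33.1 against 38.7 to 40.3, a narrow group. Pecam1 on 14w-WD replicate 1 had 0.876, at 66.0 against 16.6 to 20.5, and without that array the change of Pecam1 against 2w-WD was -0.22 in place of 0.03. Tie1 on 2w-WD replicate 2 had 0.754, at 28.3 against 5.35 to 9.56, all below the filter intensity.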

How the results depend on the processing

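In 2w-WD against CHOW, limma called 0 of all genes under each of the 28 alternatives, and so 0 of those of the 10 that were tested (5 in most, 3 with an intensity over 100 on at least 5 arrays, all 10 without a filter), with 1164 genes at an unadjusted p under 0.05 in the reported fit. In 14w-WD against CHOW, 0 of those tested were called under each alternative, while the count over all genes, 1 as reported, was 2234 with array weights, 122 with only the 2 groups compared, 20 with the replicate block, 17 without a filter, 7 with a pseudocount of 64, 0 with quantile normalization, with averaged probe sets or with the share of probe sets over 100 as a covariate (1621, 1819 and 725 at an unadjusted p under 0.05), and 0 to 201 with 1 array left out. In 14w-WD against 2w-WD, the count of 1338 was 3839 with array weights, 2522 with every probe set tested, 2122 with the replicate block, 0 with the covariate (934 at an unadjusted p under 0.05) and 164 to 3536 with 1 array left out. The 1 call among the 10, Nos3, became 0 with a pseudocount of 64, without a filter, with an intensity over 100 on at least 5 arrays (Nos3 was then not tested), with quantile normalization, median centring, no trend or the covariate, and was 0 to 1 with 1 array left out; its change ran from 0.42 to 0.89 over all 27 fits that tested it, and the cause was not tested. Small changes turned sign. With array weights Cdh5 had -0.072 in 2w-WD against CHOW, 0.025 in 14w-WD against CHOW and 0.10 in 14w-WD against 2w-WD, and with probe sets averaged 0.051 in 14w-WD against CHOW. In 14w-WD against CHOW, Nos3 had -0.031 with quantile normalization and -0.11 with the covariate, Ecscr -0.030 with the covariate, and Vcam1 0.18 and Itgb1 0.059 with probe sets averaged; Itgb1 had 0.11 in 14w-WD against 2w-WD with them. With 1 array left out, Cdh5 ran from -0.094 to 0.11, -0.21 to 0.18 and -0.23 to 0.16 in the 3 comparisons in that order, Vcam1 from -0.14 to 0.054 in 14w-WD against CHOW, and Vwf from -0.35 to 0.21 in 14w-WD against 2w-WD. Whether equal replicate numbers pair the arrays could not be settled, since the labels do not say. Of 15 pairs of equal number, 7 had deviations from their group means that correlated above 0.1 (range -0.17 to 0.48). In 6 of the 15 the best match was the own number. The replicate block added calls of Robo4 and Thbd in 14w-WD against 2w-WD (adjusted p = 0.0414 and 0.0134) and changed no call among the 5 tested genes (Nos3 0.70, adjusted p = 0.0313, and 1 call in 14w-WD against 2w-WD; 0 calls in both other comparisons). The cause of these shifts was not tested. Pecam1, Kdr, Tek, Tie1 and Sele are limited by dim signal.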

Other observations

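Genes used as markers of lymphatic endothelium, chosen for mention after their values were seen, were measurable. Prox1, the transcription factor that sets lymphatic identity, ran from an intensity of 65.9 to 209 in CHOW, 108 to 294 in 2w-WD and 87.8 to 233 in 14w-WD, above the filter level on all 15 arrays. Lyve1, a hyaluronan receptor of lymphatic endothelium that some tissue macrophages also carry, ran from 68.7 to 241, 93.6 to 1303 and 42.5 to 244 in the same order. Flt4, the receptor of Vegfc, ran from 58.5 to 209, 24.4 to 153 and 14.9 to 211 and was above the level on 12 of 15 arrays. The groups of each gene overlapped. Over 15 arrays Prox1 had r = -0.53 with Vwf, -0.72 with Nos3 and -0.55 with Cdh5. Each was the lowest r among the 29 tested genes of the further endothelial list. Flt4 had 0.69, 0.67 and 0.44 in the same order, and Lyve1 had 0.08, -0.34 and -0.03. Which cells made these transcripts was not tested.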
